A study of Mus musculus with 30 samples.

Results

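Albumin (Alb), transthyretin (Ttr), retinol-binding protein 4 (Rbp4), the vitamin D-binding protein (Gc), fetuin-A (Ahsg), fetuin-B (Fetub) and zinc-alpha-2-glycoprotein (Azgp1) are plasma proteins that hepatocytes make and secrete. These 7 genes were chosen by name, and all 7 were found among the 55487 genes counted by RNA sequencing (RNAseq) in 30 mouse livers. All 7 passed the filter on low counts in every comparison. The livers came from adult male C57BL/6 mice. The labels give an age of 8 weeks, which per the methods was the age when feeding began. The mice were fed for 6 weeks with a methionine and choline deficient diet (MCD), which produces steatohepatitis, or with regular chow (RCD). Mice of either diet received a monoclonal antibody that neutralizes ACBP/DBI, an extracellular checkpoint of autophagy (anti-DBI), or a mouse IgG2a isotype control (IgG), injected 2 times a week over weeks 4 to 6 of the diet. The groups were MCD anti-DBI (n = 10), MCD IgG (n = 10), RCD anti-DBI (n = 5) and RCD IgG (n = 5). The IgG mice were thus injected as well, and no group was left uninjected. Per the methods the antibody lowers circulating ACBP/DBI only in part, and RNA was taken from whole liver, so fewer cells of a type and less RNA per cell cannot be told apart. The comparisons ask how these genes differ with the diet, with the antibody on either diet, and whether the antibody effect depends on the diet.

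Most of these proteins carry a cargo. Albumin binds fatty acids, bilirubin and many hormones, and sets the oncotic pressure of plasma. Transthyretin carries thyroxine and forms a complex with retinol-binding protein 4, the carrier of retinol out of the liver. The vitamin D-binding protein, a member of the albumin family, carries vitamin D metabolites and scavenges actin. Fetuin-A binds calcium phosphate in plasma, fetuin-B inhibits a protease of the egg, and zinc-alpha-2-glycoprotein, a soluble relative of class I histocompatibility molecules, is known for promoting lipolysis. Albumin, transthyretin and retinol-binding protein 4 are classic negative acute phase proteins, and serum albumin and prealbumin (transthyretin) are used in the clinic as readouts of hepatic synthesis and nutrition.

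The genes lie at few places of the genome (GRCm38, positions of the deposited table). Alb (ENSMUSG00000029368) occupies chr5:90460897-90476602 on the plus strand and Gc (ENSMUSG00000035540) chr5:89417522-89457898 on the minus strand, 1003 kb apart with 4 protein-coding genes between them. Azgp1 (ENSMUSG00000037053) lies on the same chromosome at chr5:137981520-137990233. Ahsg (ENSMUSG00000022868, chr16:22891277-22899449) and Fetub (ENSMUSG00000022871, chr16:22918334-22939778) are neighbouring paralogs on the plus strand, with a gap of 18.9 kb and 0 protein-coding genes between them. Rbp4 (ENSMUSG00000024990) lies at chr19:38116629-38125281 on the minus strand, and Ttr (ENSMUSG00000061808) on a chromosome that holds no other member. An antisense gene, Gm30505, overlaps Ahsg. It had 1649 counts over all livers, against 4461848 for Ahsg.

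The promoter windows of 3 members are shown because Alb was the most abundant gene in these livers and because the neighbours Ahsg and Fetub moved apart on MCD. They run from 250 bases before to 50 bases after the RefSeq start (GRCm38.p6, plus strand), at chr5:90460620-90460919 for Alb, chr16:22891765-22892064 for Ahsg and chr16:22918132-22918431 for Fetub, of whose 2 windows the upstream one is shown. Capitals mark the D-box letters TTATGTAA, the C/EBP letters TTNNGCAA, the HNF1 half-site letters GTTAAT and the TATA box letters TATAAA, each searched on both strands.
Alb: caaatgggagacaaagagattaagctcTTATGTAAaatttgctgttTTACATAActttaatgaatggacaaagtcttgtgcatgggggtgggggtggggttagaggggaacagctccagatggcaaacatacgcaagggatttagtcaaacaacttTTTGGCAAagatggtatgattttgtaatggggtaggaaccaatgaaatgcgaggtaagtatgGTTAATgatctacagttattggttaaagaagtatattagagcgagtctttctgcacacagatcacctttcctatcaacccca
Ahsg: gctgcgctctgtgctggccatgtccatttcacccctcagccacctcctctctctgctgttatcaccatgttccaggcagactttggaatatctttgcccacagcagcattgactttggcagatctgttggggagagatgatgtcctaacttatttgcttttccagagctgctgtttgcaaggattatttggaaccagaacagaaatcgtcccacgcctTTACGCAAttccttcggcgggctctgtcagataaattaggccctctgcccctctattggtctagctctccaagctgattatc
Fetub: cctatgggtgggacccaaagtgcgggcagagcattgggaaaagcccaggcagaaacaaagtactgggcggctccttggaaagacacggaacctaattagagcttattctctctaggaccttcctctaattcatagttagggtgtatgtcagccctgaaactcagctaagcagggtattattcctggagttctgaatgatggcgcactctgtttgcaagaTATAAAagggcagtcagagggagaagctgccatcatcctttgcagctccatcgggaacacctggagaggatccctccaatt
The Alb window held the D-box letters at 2 places, 223 and 204 bases before the start, the C/EBP letters at 94 and the HNF1 half-site letters at 32 bases before it. The Ahsg window held the C/EBP letters 32 bases before the start, and the Fetub window the TATA box letters 31 bases before it. The D-box letters occurred in 0.938% of 32851 RefSeq windows of this length, the C/EBP letters in 10.8%, the HNF1 letters in 7.10% and the TATA letters in 13.6%. Windows were read for 6 members. Among the others, the Gc window held the HNF1 letters 52 bases before the start, 1 of the Rbp4 windows held the C/EBP letters 128 and the TATA letters 28 bases before it, and the Azgp1 window held none of the 4. No matches overlapped each other. Distances are from the RefSeq start, which need not be the gene start of the deposited table. The Ahsg window lies wholly inside the span of that gene given above. A match of letters is a description of the window and not a measured binding site.

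Libraries held 8357168 to 21670937 counts, and mitochondrial genes took 4.01% to 5.69% of them. Hepatocyte markers dominated every library, with Alb alone making up most of their sum. The summed level of 8 such markers, Alb among them, was 113532 to 163904 CPM (counts scaled to a common library size) in MCD anti-DBI, 68985 to 128714 CPM in MCD IgG, 78962 to 105503 CPM in RCD anti-DBI and 98655 to 123869 CPM in RCD IgG. The adipocyte markers Adipoq, Plin1 and Cfd were at or near 0 in most livers, with the highest sums in MCD IgG 9 (11.7 CPM) and RCD IgG 3 (6.19 CPM). The libraries MCD anti-DBI 5 and 10 were nearly alike. Only 8 of 9440 genes differed over 1.5-fold between them, against at least 134 genes in any other pair of 1 group, and no source says that they share a mouse. With both summed into 1 library no call of the 7 genes changed.

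The 7 genes together took a large share of all liver mRNA. Their share of all counts was 11.5% to 15.7% in MCD anti-DBI (median 13.2%), 9.37% to 13.6% in MCD IgG (12.2%), 7.83% to 9.88% in RCD anti-DBI (9.37%) and 9.30% to 10.9% in RCD IgG (10.4%). These shares are of raw counts, without scaling between libraries. By median share the 7 genes stood higher in MCD IgG than in RCD IgG. After TMM scaling the mean of Alb, the largest of them, was lower in MCD IgG. The size of the changes below thus depends on this scaling, and no alternative was run without scaling. Levels below are CPM after TMM normalization over all 30 libraries. Per kb of canonical transcript, the mean level of Alb was 55225 CPM in MCD anti-DBI, 40523 CPM in MCD IgG, 36112 CPM in RCD anti-DBI and 42900 CPM in RCD IgG. It held rank 1 of all genes in each group. On this per-kb scale Ahsg held rank 5 in MCD anti-DBI and rank 4 in MCD IgG, against rank 11 in both RCD groups. Gc ranked between 14 and 16, Ttr between 13 and 20 and Rbp4 between 17 and 25. Azgp1 ranked between 68 and 77, and Fetub, the lowest of the 7, between 175 and 285. Ahsg mRNA was thus far more abundant than that of its neighbour, with means per kb of 8198 and 299 CPM in MCD anti-DBI and of 4808 and 330 CPM in RCD IgG for Ahsg and Fetub.

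**Figure D1:**
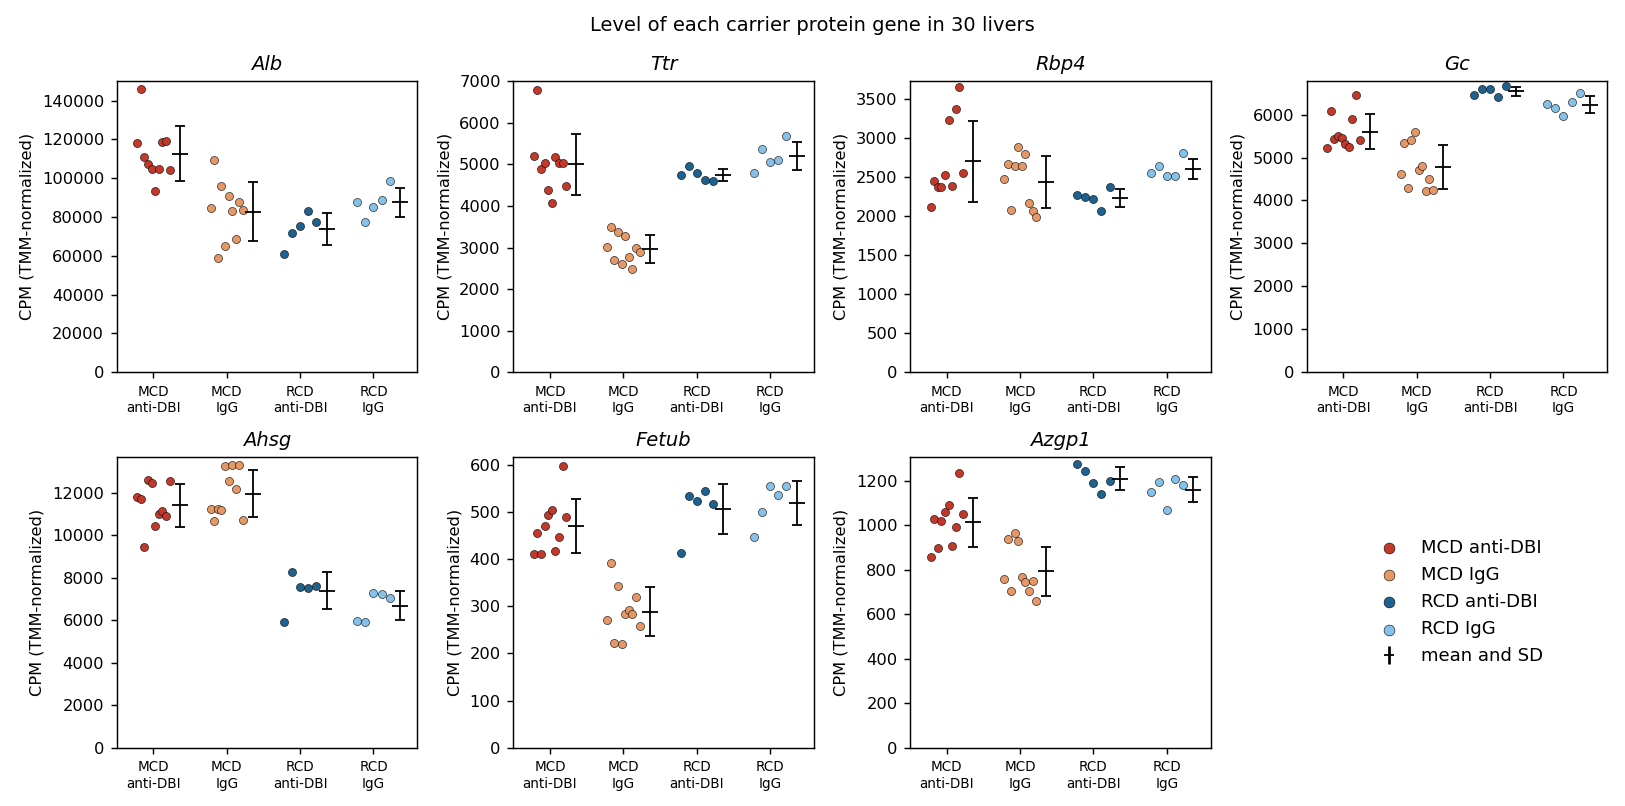
Level of each gene (CPM after TMM normalization, linear axis from 0) in the 30 livers, with 1 point per mouse and the mean and SD of each group beside it. Ttr and Fetub of MCD IgG lie below every other group, Ahsg is higher on MCD than on RCD with either antibody, and Rbp4 spreads most in MCD anti-DBI.

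Within the MCD arm, 5 of the 7 genes rose with anti-DBI, namely Ttr, Fetub, Alb, Azgp1 and Gc, and none fell. In this comparison 42.1% of the 13538 genes tested passed the threshold (adjusted p under 0.05), 20.4% with a higher level. The median log2 fold change was 0.34 over the 7 genes and -0.02 over all genes tested. Rbp4 and Ahsg did not pass. The groups did not overlap for Ttr and Fetub, as for 2.51% of all genes in the higher direction.

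Ttr, the thyroxine and retinol complex carrier, showed the clearest separation. It was at 4066 to 6795 CPM in MCD anti-DBI (median 5035) and at 2483 to 3505 CPM in MCD IgG (median 2942). The lowest liver given anti-DBI thus lay above the highest given IgG. The log2 fold change was 0.75 (SE 0.0859, 1.68-fold, adjusted p = 1.33e-06, edgeR), and Ttr ranked 122 of 13538 genes by p.

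Fetub was at 410 to 598 CPM in MCD anti-DBI (median 463) and at 220 to 392.3 CPM in MCD IgG (median 284). Here too every liver given anti-DBI was above every liver given IgG, though the nearest livers were close. Fetub rose by 0.69 on the log2 scale (SE 0.0966, 1.61-fold, adjusted p = 1.15e-05, edgeR).

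Alb was at 93337 to 145806 CPM in MCD anti-DBI (median 109206) and at 58696 to 109173 CPM in MCD IgG (median 84122). The groups overlapped, with 5 livers of MCD anti-DBI below the highest liver of MCD IgG. The log2 fold change was 0.43 (SE 0.111, 1.35-fold, adjusted p = 0.00350, edgeR). With limma on log2(CPM + 1) the same change of 0.45 missed the threshold (adjusted p = 0.0930), the highest of 30 alternatives, whose lowest adjusted p was 6.84e-05.

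Azgp1 was at 855 to 1237 CPM in MCD anti-DBI (median 1023) and at 661 to 964 CPM in MCD IgG (median 752), a log2 fold change of 0.34 (SE 0.0806, adjusted p = 0.00172, edgeR). Gc was at 5233 to 6455 CPM in MCD anti-DBI (median 5446) and at 4225 to 5603 CPM in MCD IgG (median 4663), a log2 fold change of 0.22 (SE 0.0685, adjusted p = 0.0131, edgeR). Both genes overlapped between the groups, since 3 livers of MCD IgG (2, 4 and 5) lay within the range of MCD anti-DBI.

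Rbp4 was at 2111 to 3651 CPM in MCD anti-DBI (median 2488) and at 1992 to 2890 CPM in MCD IgG (median 2560). Its log2 fold change was 0.13, with a 95% interval of -0.07 to 0.34 (adjusted p = 0.313, edgeR). Livers 6, 8 and 9 of MCD anti-DBI stood at 3229, 3379 and 3651 CPM, above every liver of the other groups, while the other 7 livers of that group lay between 2111 and 2553 CPM. Ahsg was at 9465 to 12614 CPM in MCD anti-DBI and at 10655 to 13327 CPM in MCD IgG. Its log2 fold change was -0.08, with an interval of -0.22 to 0.06 (adjusted p = 0.398, edgeR).

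The MCD diet itself, with IgG, moved 5 of the 7 genes and in both directions. Ahsg rose, Ttr, Fetub, Azgp1 and Gc fell, and Alb and Rbp4 did not pass the test. Of the 13672 genes tested, 57.1% passed, 29.9% with a higher and 27.2% with a lower level, so that a gene that passed was the commoner case in this comparison. The median log2 fold change was -0.38 over the 7 genes and 0.03 over all genes. None of the 5 genes overlapped between the groups, as was the case for 27.1% of all genes.

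Ahsg and Fetub, which sit side by side, moved apart. Ahsg was at 10655 to 13327 CPM in MCD IgG (median 11704), against 5967, 5931, 7277, 7224 and 7064 CPM in RCD IgG. Fetub was at 220 to 392.3 CPM in MCD IgG (median 284), against 446, 500, 554, 536 and 555 CPM in RCD IgG. Each MCD IgG liver thus had more Ahsg and less Fetub than any RCD IgG liver. The log2 fold change was 0.85 for Ahsg (SE 0.0974, 1.80-fold, adjusted p = 8.91e-07) and -0.83 for Fetub (SE 0.115, 0.561-fold, adjusted p = 7.81e-06, edgeR).

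Ttr was at 2483 to 3505 CPM in MCD IgG (median 2942), against 4786, 5371, 5061, 5098 and 5679 CPM in RCD IgG. It fell by 0.80 on the log2 scale (SE 0.0889, 0.574-fold, adjusted p = 5.94e-07, edgeR). Azgp1 was at 661 to 964 CPM in MCD IgG and at 1068 to 1208 CPM in RCD IgG, and fell by 0.54 (SE 0.0914, adjusted p = 6.62e-05, edgeR). Gc was at 4225 to 5603 CPM in MCD IgG and at 5975 to 6507 CPM in RCD IgG, and fell by 0.38 (SE 0.0849, adjusted p = 0.00104, edgeR).

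Alb, which did not pass, spread widely among MCD IgG livers. It was at 58696 to 109173 CPM in MCD IgG (median 84122), against 87652, 77367, 85325, 88744 and 98707 CPM in RCD IgG. The coefficient of variation was 18.3% in MCD IgG and 8.75% in RCD IgG. Its log2 fold change was -0.07 with a 95% interval of -0.34 to 0.20 (adjusted p = 0.684), and that of Rbp4, the partner of Ttr, was -0.08 with an interval of -0.27 to 0.11 (adjusted p = 0.490, edgeR).

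**Figure D2:**
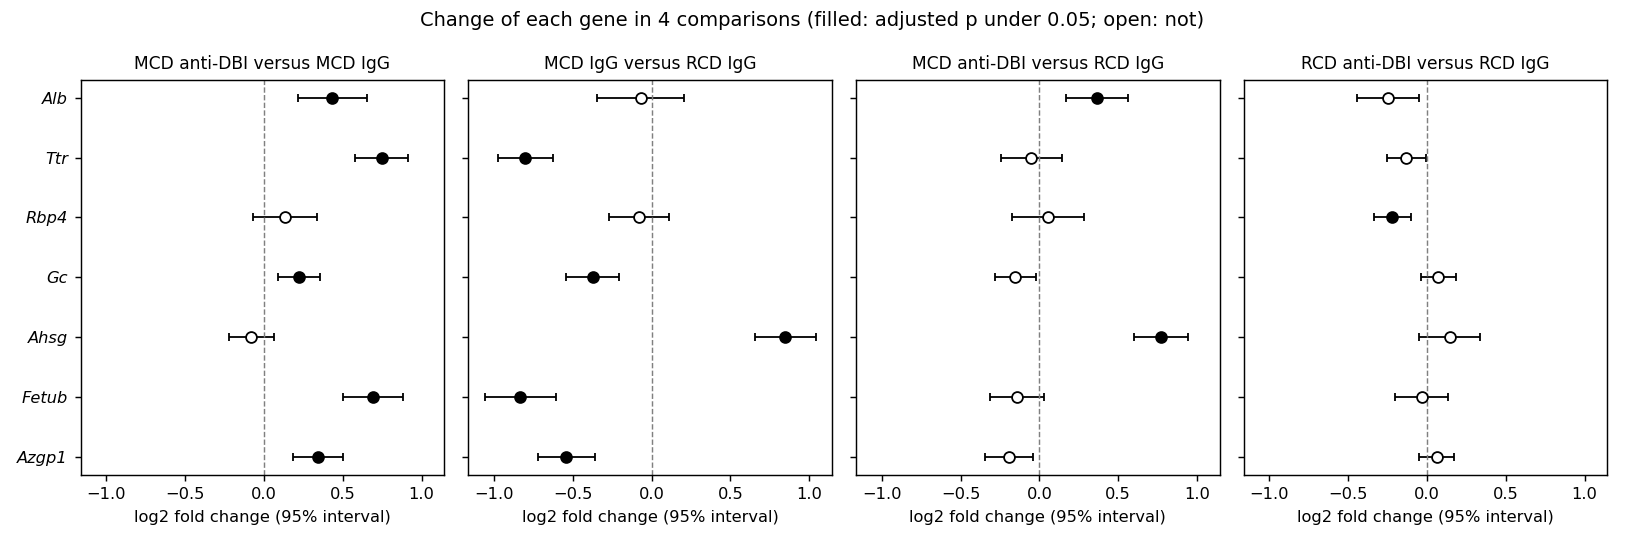
Log2 fold change of each gene (horizontal axis, 0 dashed) with its 95% interval in 4 comparisons. Filled points passed an adjusted p of 0.05 and open points did not. Ahsg stands at 0.85 in MCD IgG versus RCD IgG, where Ttr and Fetub stand at -0.80 and -0.83, and Ttr and Fetub stand at 0.75 and 0.69 in MCD anti-DBI versus MCD IgG.

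Set against RCD IgG, livers of MCD mice given anti-DBI differed in 2 of the 7 genes, both higher, where 36.5% of 13912 genes passed (18.4% higher). Ahsg was at 9465 to 12614 CPM in MCD anti-DBI and at 5931 to 7277 CPM in RCD IgG, a log2 fold change of 0.77 (SE 0.0872, adjusted p = 3.46e-06, edgeR). Its groups did not overlap, as for 6.38% of all genes in this direction. Alb was at 93337 to 145806 CPM in MCD anti-DBI and at 77367 to 98707 CPM in RCD IgG, a log2 fold change of 0.37 (95% interval 0.17 to 0.56, adjusted p = 0.00811, edgeR). The call of Alb was lost with limma (adjusted p = 0.215, with 3.58e-04 as the lowest of 25 alternatives).

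The intervals of the other 5 genes in that comparison were -0.24 to 0.14 for Ttr, -0.17 to 0.28 for Rbp4, -0.28 to -0.02 for Gc, -0.31 to 0.03 for Fetub and -0.35 to -0.04 for Azgp1. The adjusted p was 0.0793 for Gc and 0.0610 for Azgp1, and both passed without MCD anti-DBI 9, at -0.18 and -0.23, which raised the count of genes called to 4. This comparison shares its livers with those above, so its values are not independent of them.

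Against RCD mice given the same antibody, MCD anti-DBI livers had higher Alb and Ahsg and lower Gc and Azgp1, in a comparison where 36.9% of 13887 genes passed. Alb was at 93337 to 145806 CPM in MCD anti-DBI, against 60986, 71504, 75343, 83061 and 77624 CPM in RCD anti-DBI. The groups did not overlap, as for 6.34% of all genes in the higher direction, and the log2 fold change was 0.62 (SE 0.108, adjusted p = 0.000288, edgeR). Ahsg differed by 0.63 (SE 0.0910, adjusted p = 4.49e-05), also without overlap, Gc by -0.22 (adjusted p = 0.0153) and Azgp1 by -0.25 (adjusted p = 0.0184, edgeR). Without the filter on low counts Gc (-0.21) and Azgp1 (-0.24) missed the threshold, and Rbp4, at 0.28 (adjusted p = 0.0807), passed without MCD anti-DBI 1 (0.31). Alb had its highest mean in MCD anti-DBI, with means of 112713 ± 14152 CPM in MCD anti-DBI, 82708 ± 15160 CPM in MCD IgG, 73704 ± 8249 CPM in RCD anti-DBI and 87559 ± 7658 CPM in RCD IgG (SD).

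On RCD the antibody was followed by a lower level of 1 of the 7 genes, Rbp4, in a comparison where 6.07% of 12699 genes passed (3.14% lower). Rbp4 was at 2271, 2251, 2221, 2061 and 2377 CPM in RCD anti-DBI, against 2551, 2639, 2511, 2512 and 2815 CPM in RCD IgG. The groups did not overlap, as for 3.41% of all genes in this direction. The log2 fold change of -0.22 (SE 0.0607, adjusted p = 0.0482, edgeR) lay just inside the threshold and left it in 14 of 19 alternatives (adjusted p 0.000962 to 0.489), among them the removal of any library but RCD anti-DBI 5.

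The other 6 genes did not pass on RCD. Alb was at 60986 to 83061 CPM in RCD anti-DBI and at 77367 to 98707 CPM in RCD IgG, a log2 fold change of -0.25 with an interval of -0.44 to -0.05 (adjusted p = 0.180, edgeR). Ttr was at 4749, 4960, 4798, 4620 and 4607 CPM in RCD anti-DBI, against 4786, 5371, 5061, 5098 and 5679 CPM in RCD IgG, with a log2 fold change of -0.13 (adjusted p = 0.276). Gc, Ahsg, Fetub and Azgp1 lay between -0.03 and 0.14.

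Whether the antibody effect depended on the diet was tested over all 30 livers. The log2 fold change with anti-DBI was higher on MCD than on RCD for Ttr, by 0.89 (SE 0.130, adjusted p = 3.83e-05, edgeR). It was also higher for Fetub, by 0.74 (SE 0.152, adjusted p = 0.00113), and for Alb, by 0.70 (SE 0.170, adjusted p = 0.00436, edgeR). These are 3 of the 7 genes, where 19.2% of 14335 genes passed (10.6% in this direction). On RCD itself the estimates of Ttr, Fetub and Alb lay below 0, at -0.13, -0.03 and -0.25, and none passed. The difference did not pass for Rbp4 (0.37, adjusted p = 0.0944), Azgp1 (0.30, adjusted p = 0.0856), Gc (0.16) or Ahsg (-0.21). That of Azgp1 passed without MCD IgG 2, 4 or 5, at 0.33 each time. Under limma the difference for Alb was 0.71 (adjusted p = 0.122, the highest of 39 alternatives, with 3.29e-04 as the lowest).

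The order of levels over the groups differed from gene to gene. Ttr averaged 5010 ± 733 CPM in MCD anti-DBI, 2962 ± 339 CPM in MCD IgG, 4747 ± 145 CPM in RCD anti-DBI and 5199 ± 339 CPM in RCD IgG (SD). Only MCD IgG stood apart from its neighbour in that order, and Fetub had the same pattern, with 470 ± 56.8, 289 ± 52.7, 506 ± 53.3 and 518 ± 46.1 CPM in MCD anti-DBI, MCD IgG, RCD anti-DBI and RCD IgG. Azgp1, at 1013 ± 110, 792 ± 110, 1209 ± 52.7 and 1160 ± 56.1 CPM in these groups, was lowest in MCD IgG, next in MCD anti-DBI and higher in both RCD groups, of which RCD IgG did not pass against MCD anti-DBI. Gc ran in the order of Azgp1, at 5606 ± 406, 4775 ± 512, 6549 ± 103 and 6237 ± 196 CPM. Ahsg, at 11412 ± 1017, 11966 ± 1091, 7386 ± 877 and 6692 ± 683 CPM, was higher on MCD in each comparison of diets. Neither the pair of MCD groups nor the pair of RCD groups passed the test for this gene. Rbp4 was at 2702 ± 519, 2443 ± 335, 2236 ± 114 and 2606 ± 128 CPM.

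Ratios of counts within a liver need no scaling between libraries. The pairs were chosen after their values were seen and are given as values with no test. The ratio of Ahsg to Fetub was 18.2 to 28.8 in MCD anti-DBI (median 25.4) and 27.2 to 60.3 in MCD IgG (median 42.3), against 13.8 to 15.5 in RCD anti-DBI (median 14.5) and 11.9 to 13.5 in RCD IgG (median 13.1). The MCD groups lay above both RCD groups without overlap, and the MCD groups overlapped slightly. The ratio of Ttr to Rbp4, whose proteins circulate as a complex, had medians of 1.91 in MCD anti-DBI, 1.26 in MCD IgG, 2.16 in RCD anti-DBI and 2.02 in RCD IgG. It ranged from 0.902 to 1.46 in MCD IgG and from 1.88 to 2.03 in RCD IgG, while MCD anti-DBI spanned 1.26 to 2.77. The ratio of Alb to Ttr had medians of 22.8 in MCD anti-DBI, 28.2 in MCD IgG, 15.7 in RCD anti-DBI and 17.4 in RCD IgG.

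**Figure D3:**
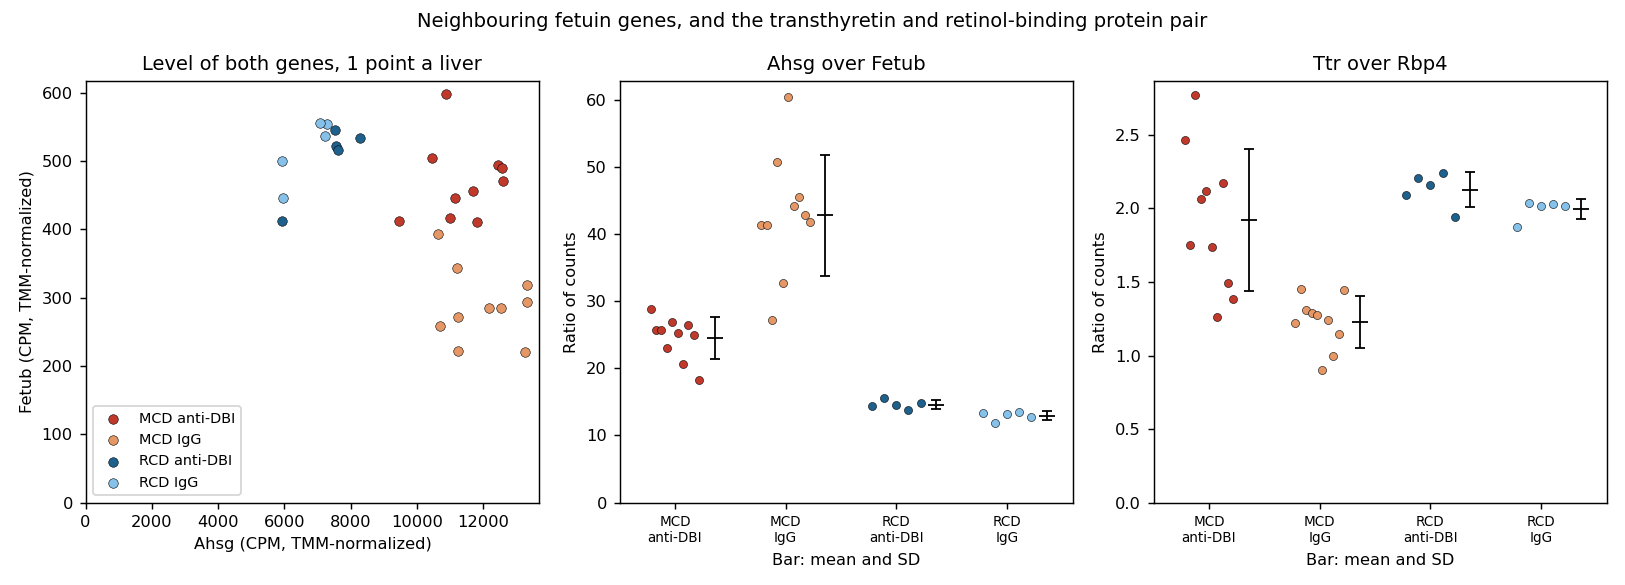
Left, level of Fetub (vertical axis) against that of Ahsg (horizontal axis) in CPM, 1 point per liver. Middle and right, ratio of counts of Ahsg to Fetub and of Ttr to Rbp4 in each liver, with the mean and SD of each group. The medians of the first ratio are 25.4, 42.3, 14.5 and 13.1 in the order drawn.

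Several genes varied together from mouse to mouse within the MCD groups. This was computed for 42 relations (the 21 pairs of genes in MCD IgG and in MCD anti-DBI) on log2 CPM, with permutation tests of 100000 resamples adjusted over all 42. The values of a liver share 1 library and its scaling. In MCD IgG, both measures passed for 3 pairs. Alb and Ttr had a Pearson r of 0.89 (two-sided permutation p = 8.70e-04, adjusted p = 0.00731) and a Spearman rho of 0.94 (p = 2.10e-04, adjusted p = 0.00441). Gc and Azgp1 had an r of 0.96 (permutation p = 1.90e-04, adjusted p = 0.00399) and a rho of 0.85 (p = 0.00294, adjusted p = 0.0412). Rbp4 and Gc had an r of 0.84 (permutation p = 0.00391, adjusted p = 0.0274) and a rho of 0.83 (p = 0.00467, adjusted p = 0.0490). Without the 2 livers farthest from the median of the first gene, r was 0.92, 0.94 and 0.84 for these pairs.

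In MCD anti-DBI, Fetub and Azgp1 had an r of 0.98 (permutation p = 1.00e-05, the smallest these resamples can give, adjusted p = 0.000420) and a rho of 0.99 (p = 2.00e-05, adjusted p = 0.000840), and r was 0.97 without the 2 farthest livers. Alb and Ttr had an r of 0.92 (permutation p = 6.50e-04, adjusted p = 0.00731) and a rho of 0.79 (p = 0.00894, adjusted p = 0.0745), and r was 0.58 without the 2 farthest livers, MCD anti-DBI 2 being highest in both genes. Leaving out MCD anti-DBI 10, the near copy of 5, gave an r of 0.97 for the first pair and 0.92 for the second. The highest Alb, Ttr, Fetub and Azgp1 of the MCD IgG group all lay in livers 2 and 4 (for Alb 109173 and 96050 CPM), which also had the lowest Afp of that group, at 9.05 and 11.9 CPM. Ahsg passed with no other member in either group. No value of r was compared between the groups.

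**Figure D4:**
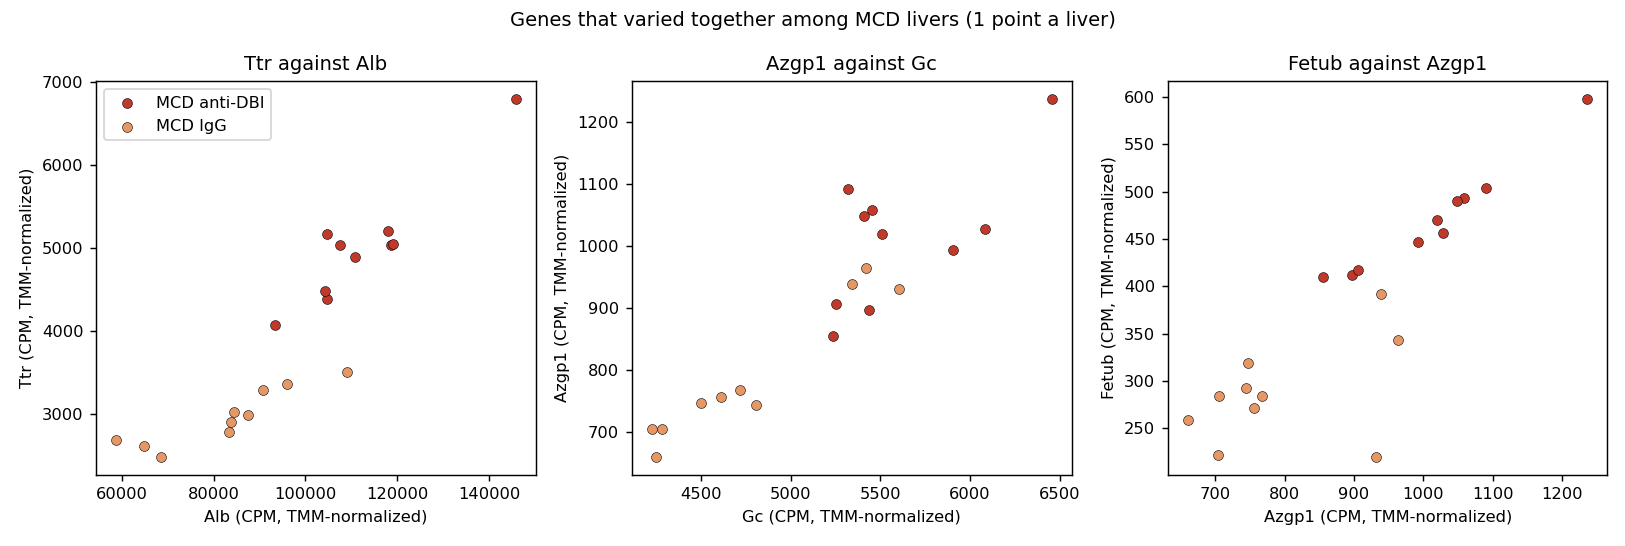
Level (CPM after TMM normalization, axes not from 0) of Ttr against Alb, Azgp1 against Gc, and Fetub against Azgp1 in the 20 MCD livers, 1 point per mouse. Alb and Ttr had an r of 0.89 in MCD IgG and 0.92 in MCD anti-DBI, where r was 0.58 without the 2 farthest livers, and Fetub and Azgp1 had an r of 0.98 in MCD anti-DBI.

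Among genes that averaged 10 CPM or more and had counts in every liver (8122 genes), those closest to each member over the 30 livers were named by the root mean square distance of centred log2 CPM. For Ttr they were Lactb and Apol7a (0.143 and 0.144, where the median gene was 0.421 away) and for Fetub Iah1 and Serpina1a (0.124 and 0.154). For Alb they were Cox5a and Rarres2 (0.182 and 0.186), for Rbp4 Aup1 and Stard10 (0.103 and 0.105) and for Gc F12 and Rnf5 (0.0861 and 0.0864). For Ahsg they were Ltbr and Mrpl43 (0.126 and 0.151), and for Azgp1 Upb1 and 1300017J02Rik (0.0967 and 0.0994). Among the members, Ttr and Fetub were each other's nearest (0.210), as were Gc and Azgp1 (0.106). Both distances exceeded those of the outside genes named for these members. The distances are not scaled to a member's own spread, which was 0.303 for Alb, 0.206 for Rbp4 and 0.414 for Fetub.

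The albumin family split as well. Besides Alb and Gc it comprises afamin (Afm), a carrier of vitamin E, and alpha-fetoprotein (Afp), the fetal counterpart of albumin. With anti-DBI on MCD, 3 of 4 rose and Afp fell. This count and those of the gene lists that follow stand against 42.1% of all genes called in MCD anti-DBI versus MCD IgG, 57.1% in MCD IgG versus RCD IgG and 6.07% in RCD anti-DBI versus RCD IgG, and no list was tested as a set. Afp was at 2.55 to 5.81 CPM in MCD anti-DBI (median 4.65), 9.05 to 55.4 CPM in MCD IgG (median 14.95), 0.621 to 1.19 CPM in RCD anti-DBI and 0.387 to 1.43 CPM in RCD IgG. Its log2 fold change was -2.09 in MCD anti-DBI versus MCD IgG (SE 0.260, adjusted p = 3.24e-06) and, for MCD IgG versus RCD IgG, 4.57 (SE 0.504, adjusted p = 5.52e-07, edgeR). Afm was 0.81 higher in MCD anti-DBI than in MCD IgG (adjusted p = 2.05e-06) and 0.54 lower in MCD IgG than in RCD IgG (log2 fold change -0.54, adjusted p = 0.000142, edgeR).

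The type 3 cystatins, the family of the fetuins, also hold histidine-rich glycoprotein (Hrg) and the kininogens (Kng1, Kng2). With anti-DBI on MCD 4 of 5 rose and none fell, Hrg by 0.57 (adjusted p = 0.000634), Kng1 by 0.31 (adjusted p = 0.00686) and Kng2 by 0.26 (adjusted p = 0.0127, edgeR), with Ahsg as the exception. Between MCD IgG and RCD IgG, Ahsg rose, Fetub fell and Hrg, Kng1 and Kng2 did not pass (-0.31, 0.10 and -0.02). Differences between the genes of the family were not tested.

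The list of other plasma carriers shares Afp with the albumin family above, so the counts overlap. Of 12 tested, 7 rose and 1 fell (the same Afp) with anti-DBI on MCD, and 4 rose and 5 fell on MCD with IgG. The medians were 0.26 and -0.11. Apolipoprotein H (Apoh) was at 1451 to 1984 CPM in MCD anti-DBI, 649 to 1311 CPM in MCD IgG and 1462 to 1627 CPM in RCD IgG, and Igfals, which keeps insulin-like growth factors in the circulation, followed it with 0.70 in MCD anti-DBI versus MCD IgG (adjusted p = 4.48e-05, edgeR). The heme carrier hemopexin (Hpx) differed by 1.24 in MCD IgG versus RCD IgG (adjusted p = 1.70e-07) and by 0.89 in RCD anti-DBI versus RCD IgG (adjusted p = 0.000117, edgeR).

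Thyroxine-binding globulin (Serpina7), another thyroxine carrier of plasma, rose on MCD with IgG, where Ttr fell. It was at 48.6 to 104 CPM in MCD anti-DBI (median 68.1), 53.6 to 88.2 CPM in MCD IgG (median 63.1), 59.3 to 68.4 CPM in RCD anti-DBI (median 62.5) and 21.9 to 37.04 CPM in RCD IgG (median 28.2). Its lowest liver in each of the first 3 groups lay above the highest of RCD IgG. It differed by 1.23 on the log2 scale in MCD IgG versus RCD IgG (SE 0.145, adjusted p = 1.28e-06), 1.11 in RCD anti-DBI versus RCD IgG (SE 0.113, adjusted p = 0.000117) and 0.06 in MCD anti-DBI versus MCD IgG (adjusted p = 0.723, edgeR). Of the 10 genes of thyroid hormone handling, 8 fell and 2 rose (Serpina7 and the thyroid hormone-binding crystallin Crym) on MCD with IgG. The organic anion transporters Slco1a1 and Slco1b2, which take up thyroid hormones among other substrates, differed by -4.92 and -1.10 and the receptor Thrb by -1.23 (adjusted p = 1.40e-10, 2.47e-09 and 2.73e-08, edgeR). With anti-DBI on MCD, 4 of the 10 rose, Slco1a1 by 2.24, Slco1b2 by 0.76, and Crym fell by 1.83 (adjusted p = 1.34e-05, 6.27e-06 and 5.36e-05, edgeR).

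Retinoid handling supplies the cargo of Rbp4. Of 16 genes tested, 8 rose and 5 fell on MCD with IgG (median 0.29), where 57.1% of all genes passed, and 8 rose and 1 fell with anti-DBI on MCD (median 0.20), where 42.1% of all genes passed. In MCD IgG versus RCD IgG the carotenoid-cleaving enzyme Bco1 differed by 1.60 and the retinol dehydrogenase Rdh16 by -1.40 (adjusted p = 7.25e-07 and 1.44e-07, edgeR). With anti-DBI on MCD, Rdh16 rose by 1.06 and Bco1 fell by 0.94 (adjusted p = 1.66e-06 and 5.81e-06, edgeR). On RCD, where Rbp4 lay just inside the threshold, 3 of 16 rose and none fell, among them the retinol-binding protein receptor Stra6l by 0.48 (adjusted p = 0.00198, edgeR).

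For vitamin D, the cargo of Gc, the hydroxylases Cyp2r1 and Cyp27a1 fell on MCD with IgG, with log2 fold changes of -1.42 and -1.58 (adjusted p = 6.72e-10 and 5.73e-06), and rose with anti-DBI on MCD, by 0.84 and 0.71 (adjusted p = 1.14e-06 and 0.00189, edgeR). Only 3 of the 8 genes listed were tested in these comparisons. Among 7 genes of lipid mobilization listed beside Azgp1, 3 rose and 2 fell on MCD with IgG, and 2 rose and 1 fell with anti-DBI on MCD.

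Of 17 liver transcription factors, which include known regulators of these genes, 11 fell and 3 rose on MCD with IgG (median -0.38), and 6 rose and none fell with anti-DBI on MCD (median 0.19), a smaller share called than the 42.1% of all genes in that comparison. Cebpa, a C/EBP family activator of hepatocyte genes, was at 377 to 541 CPM in MCD anti-DBI, 224 to 334 CPM in MCD IgG and 496 to 565 CPM in RCD IgG. The 3 groups did not overlap except between MCD anti-DBI and RCD IgG. Its log2 fold change was 0.74 in MCD anti-DBI versus MCD IgG (SE 0.0814, adjusted p = 7.62e-07) and -0.93 in MCD IgG versus RCD IgG (SE 0.0855, adjusted p = 6.09e-08, edgeR). Hnf4a differed by 0.27 and -0.63 in these comparisons (adjusted p = 0.0137 and 2.51e-06, edgeR).

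The D-box factors are named for a site in the albumin promoter. The D-box letters marked in the Alb window were found by sequence alone and need not be that site. A site that differs from the letters searched was not marked. Dbp, the first of them, was at 146 to 246 CPM in MCD anti-DBI (median 187), 41.8 to 136 CPM in MCD IgG (median 88.4), 149 to 199 CPM in RCD anti-DBI (median 179) and 182 to 257 CPM in RCD IgG (median 202). MCD IgG lay below the other groups without overlap. Dbp had a log2 fold change of 1.07 in MCD anti-DBI versus MCD IgG (SE 0.156, adjusted p = 1.81e-05) and -1.25 in MCD IgG versus RCD IgG (SE 0.191, adjusted p = 2.31e-05, edgeR). Tef and Hlf rose with anti-DBI on MCD, by 0.34 and 0.28, and had log2 fold changes of -0.76 and -0.34 on MCD with IgG, while the repressor Nfil3 did not pass. Dbp transcripts follow the time of day, and the hour at which livers were taken is not given in the sources used here. Its part in the levels of these genes was not tested.

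Positive and negative acute phase proteins are usually set against each other. All 16 positive acute phase proteins rose with anti-DBI on RCD (median 1.12), for example the serum amyloid gene Saa2 by 6.86 (adjusted p = 2.99e-06, edgeR), in the comparison where Rbp4 was the 1 carrier gene of the 7 that passed. On MCD with IgG 10 of the 16 rose and none fell (median 0.97), where Ahsg rose and Ttr, Fetub, Azgp1 and Gc fell. With anti-DBI on MCD 9 rose and 2 fell (median 0.52), in the comparison where Ttr and Alb also rose. Of 7 further genes listed here as negative acute phase proteins, 4 fell and 1 rose on MCD with IgG. Those that fell include Serpina1c (-1.86) and Serpina1e (-8.24), alpha-1-antitrypsin genes, which are not classic negative acute phase proteins (adjusted p = 2.70e-10 and 1.68e-11, edgeR). Igf1 and F12 had log2 fold changes of -0.58 and -0.35 (adjusted p = 0.000440 and 0.00427, edgeR). Apoa4, the exception, differed by 4.40 (adjusted p = 8.88e-11, edgeR). With anti-DBI on MCD 4 of these 7 genes rose and 1 fell, and with anti-DBI on RCD 1 rose and 1 fell. Genes near Serpina1c are close copies whose reads can be split among them, so its values and those of Serpina1e are uncertain.

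Genes of the secretory pathway, which all these proteins pass through, rose in 11 and fell in 3 of 17 cases on MCD with IgG (median 0.41), the small GTPase Sar1b being among those that fell (-0.88, adjusted p = 8.61e-09, edgeR). With anti-DBI on MCD 3 rose, among them Sar1b by 0.41 (adjusted p = 5.88e-06, edgeR), and 1 fell, again a smaller share than the 42.1% of all genes. The median of the list was -0.16 there, opposite in sign to Sar1b.

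Markers of other cell types moved between the same groups. The summed level of 7 monocyte and macrophage markers was 134 to 939 CPM in MCD anti-DBI (median 442), 193 to 1540 CPM in MCD IgG (median 650), 103 to 194 CPM in RCD anti-DBI and 81.0 to 117 CPM in RCD IgG. Of these 7 markers, 6 rose on MCD with IgG and 6 fell with anti-DBI on MCD. For 6 stellate cell and fibroblast markers the sums were 84.6 to 163 CPM in MCD anti-DBI, 98.9 to 432 CPM in MCD IgG, 81.9 to 113 CPM in RCD anti-DBI and 60.3 to 178 CPM in RCD IgG, and 4 of 6 rose and 4 of 6 fell in those comparisons. Of the 8 hepatocyte markers, Alb itself among them, 4 fell and none rose on MCD with IgG. With anti-DBI on MCD 6 rose, Alb included, and none fell. Endothelial markers summed to 130 to 174 CPM in MCD anti-DBI, 109 to 162 CPM in MCD IgG, 208 to 291 CPM in RCD anti-DBI and 228 to 262 CPM in RCD IgG. Of these 5 markers, 4 fell and none rose on MCD with IgG, and 1 rose and 1 fell with anti-DBI on MCD. All 5 were lower in MCD anti-DBI than in RCD IgG, where 36.5% of all genes passed. The 5 Kupffer cell markers summed to 120 to 336 CPM in MCD anti-DBI, 170 to 437 CPM in MCD IgG, 280 to 434 CPM in RCD anti-DBI and 228 to 313 CPM in RCD IgG, and 4 cholangiocyte markers to no more than 26.9 CPM in any liver. Of the Kupffer cell markers, 1 rose and 2 fell on MCD with IgG, and none passed with anti-DBI on MCD. With anti-DBI on RCD 3 of them rose and none fell. The part of cell composition in the levels of the 7 genes was not tested.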

How the data were processed

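Liver RNA of 30 mice was sequenced from TruSeq libraries. The deposited table gives counts per gene, with annotation on GRCm38. Its header names STAR and featureCounts and the labels STAR and DESeq2, while the methods name HISAT2 and GRCm39, so the aligner is uncertain. The authors also deposited size-factor normalized signal, log2 fold changes and p-values of their own comparisons, which were not used. Counts were tested with edgeR 4.0.16 (R 4.3.3): filterByExpr, TMM scaling, quasi-likelihood fits of the groups of each comparison, and Benjamini-Hochberg adjustment over all genes tested, with a threshold of 0.05. The interaction was fitted over all 30 libraries. Intervals are 95% normal intervals from the standard error. Levels are CPM, and levels per kb use canonical transcript lengths. Correlations used permutation tests of 100000 resamples (scipy 1.17.1). Alternatives used DESeq2 1.42.0, limma 3.58.1 on log2(CPM + 1), other scalings and filters (none, or at least 10 counts in each library), the replicate number as a block, all libraries in 1 fit, and each library left out. On simulated data for MCD anti-DBI versus MCD IgG (13467 genes), 60% of changes of 0.5 and 89.8% of changes of 1 on the log2 scale were recovered. For RCD anti-DBI versus RCD IgG (12572 genes) these were 51.5% and 82.7%. For MCD IgG versus RCD IgG they were 46.9% and 86.5%, and for MCD anti-DBI versus RCD anti-DBI 36.4% and 82.7%. For MCD anti-DBI versus RCD IgG they were 50% and 73.4%. The interaction had 33.0% and 71%. The simulations changed fewer genes than passed in the data, which alters the adjusted threshold, so these rates do not carry over directly. Libraries held 8357168 to 21670937 counts, which limits low genes such as Afp. Members, lists and the genes named from them (up to 4 per list by smallest p, with exceptions, and the 2 nearest profiles) were chosen with earlier results of these data known. Promoter windows came from RefSeq (GRCm38.p6), with 8 windows for 6 members. The sequence of Ttr was not used here.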

Additional observations from a re-analysis of the deposited data

Results flagged for a closer look

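Of 28 groups of values (7 genes in 4 groups), 4 held a liver that stood far from the rest of its group, where chance gives about 1 in 20. Alb (145806 CPM) and Ttr (6795 CPM) stood apart in MCD anti-DBI 2, Fetub in MCD anti-DBI 9 (598 CPM) and Fetub in RCD anti-DBI 1 (413 CPM). Leaving out MCD anti-DBI 2 or 9 changed no call of these genes in MCD anti-DBI versus MCD IgG. The effect of the antibody differed between the diets by 0.70 for Alb, 0.89 for Ttr and 0.74 for Fetub on the log2 scale (edgeR, adjusted p = 0.00436, 3.83e-05 and 0.00113).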

How the results depend on the processing

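Of 1134 values of the 7 genes under the alternatives, 1104 kept their side of the threshold, 19 lost their call, 11 gained one and 0 reversed a call. Each alternative scaled the libraries in some form, so none shows the calls on raw shares. The 5 genes called in MCD IgG versus RCD IgG kept their call throughout, and in MCD anti-DBI versus MCD IgG the 1 change was Alb with limma. The 2 genes called in MCD anti-DBI versus RCD IgG became 4 with DESeq2, 1 with limma and 4 with the replicate number as a block, and ranged from 2 to 4 when 1 library was left out. The 4 called in MCD anti-DBI versus RCD anti-DBI became 2 without a filter. In RCD anti-DBI versus RCD IgG the 1 called became 0 with upper-quartile scaling, without a filter, with limma, with the replicate block and with all 30 libraries in 1 fit, and ranged from 0 to 1 when 1 library was left out. The 771 genes called there became 333 in the fit of all 30 libraries, and ranged from 470 (without RCD anti-DBI 3) to 836 when 1 library was left out. The causes were not tested. The numbers were not taken to pair the mice: between groups, r of same-numbered mice ran from -0.28 to 0.22, in no pair of groups was every r over 0.1, and 0 of 10 mice in the MCD pair and 0 to 2 of 5 in the other pairs matched their own number best. Without a filter the median of all genes moved by 0.12 in MCD IgG versus RCD IgG.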
